A study of Rattus norvegicus with 8 samples.

Results

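Branched-chain amino acid oxidation was examined through 10 genes of the pathway in rat liver: Bckdha, Bckdhb, Dbt, Ivd, Mccc1, Mccc2, Hibch, Hibadh, Aldh6a1 and Acadsb. They were chosen by name as listed enzymes of the pathway, and every probe set (a group of short probes for 1 transcript) that carried 1 of these symbols alone was taken, which gave 13 of the 31042 probe sets on the array. Livers came from male Wistar rats 8 weeks old, 4 fed the HP diet with 1.2% phosphorus and 4 fed the control diet with 0.3% phosphorus for 24 days, both based on the AIN-93G diet, and each rat had 1 array. A probe set was counted as measured where its highest and lowest rat differed by at least 0.05 on the log2 scale. Of the 10 genes, 4 were measured, by 1 probe set each: Aldh6a1, Ivd, Dbt and Mccc1. In bulk liver RNA, fewer cells of a type and less RNA per cell cannot be told apart.

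Leucine, isoleucine and valine first lose their amino group to the branched-chain aminotransferases, and the resulting keto acids are then oxidised by the mitochondrial branched-chain α-keto acid dehydrogenase complex, the committed step of the pathway. The liver is poor in the aminotransferases and rich in the complex, so it mainly receives keto acids that muscle has made. After the complex the 3 routes part: leucine carbon ends as acetyl-CoA and acetoacetate, and valine carbon as propionyl-CoA. Isoleucine carbon ends as acetyl-CoA and propionyl-CoA.

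Across the 4155 measured probe sets (13.4% of all), which are not independent replicates, Pearson's r between arrays ran from 0.968 to 0.992 and the array medians from 8.76 to 8.81. Of 8 hepatocyte markers, Apoa1 and Fgb, which encode plasma proteins made in the liver, were measured, at a mean log2 level of 13.13 for Apoa1 and 13.86 for Fgb. The other hepatocyte markers with a probe set, Alb (albumin) at 14.53 and Ttr (transthyretin) at 13.96 among them, were nearly constant and give no value per rat. The difference between 3′ and 5′ probe sets of Gapdh, a sign of RNA integrity, was 0.81 to 0.97 (log2) in HP rats and 0.95 to 0.98 in control rats, and for beta-actin it was 2.04 to 2.10 and 1.89 to 2.16 in HP and control rats.

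Aldh6a1, the methylmalonate-semialdehyde dehydrogenase that ends the valine route by making propionyl-CoA, was lower in the rats fed the HP diet. Its log2 values were 9.62, 9.49, 9.58 and 9.51 in HP rats 1 to 4, against 9.74, 9.85, 9.84 and 9.63 in control rats 1 to 4. The diets did not overlap, but the highest HP rat (rat 1) and the lowest control rat (rat 4) were only 0.00301 apart. The mean was 9.55 ± 0.06 in HP rats and 9.76 ± 0.10 in control rats (SD, n = 4 each), a log2 difference of -0.21 (standard error 0.06, 95% interval -0.36 to -0.07) or 0.863 times the control level. By rank products, the method of the study, which ranks every difference between an HP and a control array, Aldh6a1 was lower with an FDR of 0.0252. It was the only member called: of the 4 measured probe sets 1 was lower and 0 were higher, where the method called 1.62% of all probe sets lower and 1.14% higher, or 12.1% and 8.5% of those measured.

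The limma linear model, which takes its error from the spread between rats, did not call Aldh6a1 over the 4155 measured probe sets (adjusted p = 0.298, unadjusted p = 0.00943). It called 0 probe sets of any gene at an adjusted p under 0.05, and at an unadjusted p under 0.05 it gave 1 member lower and 0 higher, beside 7.29% of the measured probe sets lower and 5.37% higher (303 and 223 probe sets, or 223 and 295 after the arrays were centred). The single member whose diets did not overlap stands beside 4.07% of the measured probe sets with all HP rats below all control rats and 3.1% above. The rank products call did not pass when only the measured probe sets were ranked (FDR 0.754), nor without control rats 1, 2, 3 or 4 (FDR 0.0698, 0.122, 0.115 and 0.0690). With each rat left out in turn the log2 difference stayed negative, at -0.26 when control rat 4 was omitted and -0.18 when control rat 2 was.

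**Figure D1:**
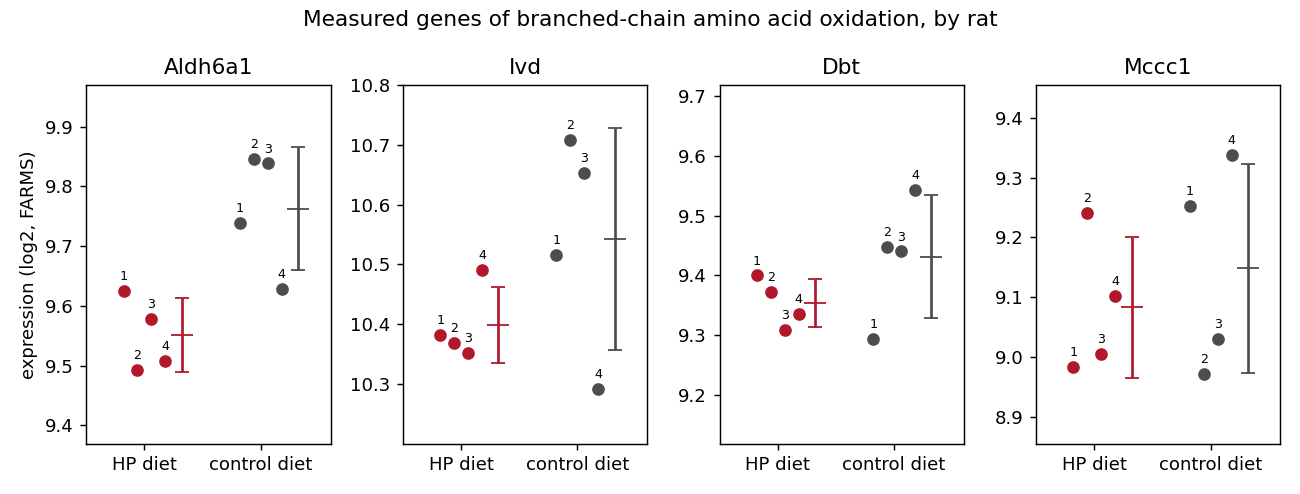
Log2 expression of the 4 measured genes in each rat, for the HP diet (red, left in each panel) and the control diet (grey, right). Numbered points are single rats with the mean and SD of each diet beside them, and every panel spans 0.6 log2 units; the diets do not overlap for Aldh6a1 and overlap for Ivd, Dbt and Mccc1.

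Ivd, the isovaleryl-CoA dehydrogenase of the leucine route, did not differ beyond the spread between rats. Its log2 values were 10.38, 10.37, 10.35 and 10.49 in HP rats 1 to 4, against 10.52, 10.71, 10.65 and 10.29 in control rats 1 to 4. The HP rats stood close together and 3 control rats lay above all of them, while control rat 4 lay below all of them. The log2 difference was -0.14 (standard error 0.09, 95% interval -0.34 to 0.06), which did not pass in rank products (FDR 0.115) or limma (adjusted p = 0.502). Without control rat 4 it was -0.23, and without control rat 2 it was -0.09.

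Dbt encodes the E2 core of the dehydrogenase complex, the acyltransferase that passes the acyl group to coenzyme A. Its log2 values were 9.40, 9.37, 9.31 and 9.34 in HP rats 1 to 4, against 9.29, 9.45, 9.44 and 9.54 in control rats 1 to 4. Here control rat 1 lay below every HP rat and the other control rats above them. The log2 difference of -0.08 (standard error 0.06, 95% interval -0.22 to 0.06) did not pass (rank products FDR 0.270, limma adjusted p = 0.583). It was -0.12 without control rat 1 and -0.04 without control rat 4.

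Mccc1 encodes the biotin-carrying subunit of methylcrotonyl-CoA carboxylase, which follows Ivd in the leucine route. Its log2 values were 8.98, 9.24, 9.00 and 9.10 in HP rats 1 to 4, against 9.25, 8.97, 9.03 and 9.34 in control rats 1 to 4. Both diets held high and low rats and overlapped, with control rats 4 and 1 the highest and control rat 2 the lowest of all 8. The log2 difference was -0.07 (standard error 0.10, 95% interval -0.29 to 0.16), with an FDR of 0.385 by rank products and an adjusted p of 0.787 by limma. It lay between -0.12 without control rat 2 and -0.0023 without control rat 4, and with array weights it was 0.00311.

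The 4 measured members had log2 differences from -0.21 to -0.07 with a median of -0.11, where the median of all measured probe sets was -0.02 and 56.5% of them were negative. All 4 stayed negative after centring and after quantile normalization of the arrays, and the sign of Mccc1 turned with array weights. The 4 genes did not all share the same order of rats within each diet, and association between them was not tested. From high to low, Dbt ran 4, 2, 3, 1 in control rats and 1, 2, 4, 3 in HP rats. In the control rats Ivd and Aldh6a1 were both highest in rat 2, then rat 3, then rat 1, and lowest in rat 4, and Mccc1 ran in exactly the reverse order. Mccc1 was also ordered in reverse of Aldh6a1 in the HP rats, from rat 2 at the top through rats 4 and 3 to rat 1, whereas Ivd was highest in HP rat 4 and lowest in HP rat 3. The SD was smaller in HP rats than in control rats for all 4 genes (0.06 and 0.10 for Aldh6a1, 0.06 and 0.19 for Ivd, 0.04 and 0.10 for Dbt, 0.12 and 0.18 for Mccc1), as it was for 67.9% of the measured probe sets.

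**Figure D2:**
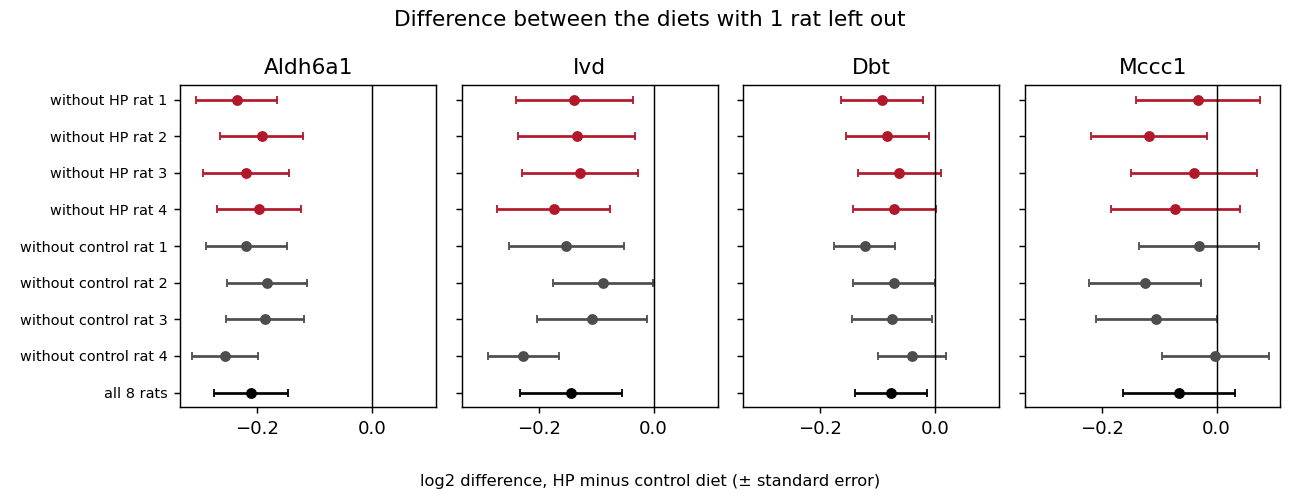
Log2 difference (HP minus control diet) of the 4 measured genes with all 8 rats (black) and with 1 HP rat (red) or 1 control rat (grey) left out; points are limma estimates and bars their standard errors. Aldh6a1 stays between -0.26 and -0.18, while Mccc1 comes as near to 0 as -0.0023 without control rat 4.

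Promoter sequences of the 4 measured genes are shown because they are the members with a value for the diet, and were taken from RefSeq on build GRCr8, from 250 bases before to 50 bases after the annotated start of the gene. Of the 10 members, 8 were found in that table. Capitals mark CCAAT, the CCAAT box bound by the factor NF-Y, on either strand (CCAAT or ATTGG as printed). Aldh6a1 lies on the minus strand (chr6:109829676-109829975), Ivd on the plus strand (chr3:126305334-126305633), Dbt on the plus strand (chr2:207166410-207166709) and Mccc1 on the minus strand (chr2:120779192-120779491), each printed 5′ to 3′ along the gene.
Aldh6a1: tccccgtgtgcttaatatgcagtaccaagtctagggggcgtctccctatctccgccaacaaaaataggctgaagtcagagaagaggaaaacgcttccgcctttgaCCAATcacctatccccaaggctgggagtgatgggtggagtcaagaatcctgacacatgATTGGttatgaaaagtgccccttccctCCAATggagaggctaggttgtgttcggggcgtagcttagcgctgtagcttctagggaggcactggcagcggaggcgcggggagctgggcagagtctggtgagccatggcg
Ivd: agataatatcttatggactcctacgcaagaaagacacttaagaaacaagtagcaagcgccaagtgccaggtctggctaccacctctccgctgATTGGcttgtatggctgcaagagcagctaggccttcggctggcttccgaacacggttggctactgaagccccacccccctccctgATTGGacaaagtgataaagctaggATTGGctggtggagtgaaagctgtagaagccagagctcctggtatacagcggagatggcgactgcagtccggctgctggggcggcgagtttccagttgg
Dbt: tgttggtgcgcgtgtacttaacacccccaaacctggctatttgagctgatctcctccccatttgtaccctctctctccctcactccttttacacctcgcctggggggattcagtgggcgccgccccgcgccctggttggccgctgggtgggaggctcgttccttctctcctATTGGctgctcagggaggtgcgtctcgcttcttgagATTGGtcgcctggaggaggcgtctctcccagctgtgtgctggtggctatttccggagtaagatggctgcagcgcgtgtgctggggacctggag
Mccc1: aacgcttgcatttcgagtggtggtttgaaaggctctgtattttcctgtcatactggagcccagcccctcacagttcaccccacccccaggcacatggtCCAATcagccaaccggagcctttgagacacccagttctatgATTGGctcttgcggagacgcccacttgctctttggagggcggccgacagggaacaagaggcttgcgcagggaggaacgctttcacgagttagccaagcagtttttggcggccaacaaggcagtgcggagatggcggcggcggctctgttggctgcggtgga
The box was found 3 times for Aldh6a1 (145, 87 and 60 bases before the start of the gene), 3 times for Ivd (158, 73 and 49 bases before), and 2 times each for Dbt (79 and 43) and Mccc1 (152 and 111). Of all 33469 promoters of the same length in the table, 37.5% held at least 1 such box and 11.2% held 2 or more. Of the members that were not measured, Bckdhb held 2 boxes, Hibadh 1, and Hibch and Acadsb 0. A second motif, CACCC on either strand, whose letters are the core bound by Klf15 and other factors of its family, was found in 8 of the 8 member promoters, beside 54.9% of all promoters. Among promoters of genes named on the array the share with CACCC was 62.2%. Of these promoters, 36.8% held at least 1 CCAAT box and 12.3% held 2 or more. A match is a description of the letters and not a bound site.

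The other 9 member probe sets gave no value for the diet. They spanned from 0.000167 to 0.00201 (log2) over the 8 rats, with no member probe set between these and the smallest measured span of 0.248 for Dbt. Within the dehydrogenase complex these were both probe sets of Bckdha, which encodes the E1α subunit that kinase phosphorylation switches off (mean log2 9.30 and 7.01), that of Bckdhb for the E1β subunit (10.47) and a second one of Dbt (6.31). In the leucine route it was Mccc2, the other subunit of the carboxylase (10.14). In the valine route they were Hibch, the hydrolase that frees 3-hydroxyisobutyrate (9.10), Hibadh, which oxidises it (11.94), and a second probe set of Aldh6a1 (12.35). In the isoleucine route it was Acadsb, the short/branched-chain acyl-CoA dehydrogenase (7.17). The FARMS summary leaves a probe set almost constant where its probes share no signal across the arrays, so these values say neither that the genes differed nor that they did not. Of the 10 member probe sets with a mean from 9 to 13, 4 were measured (40%), against 60.8% of the 2479 probe sets with a single symbol at these levels. The second probe set of Aldh6a1 therefore neither repeats nor contradicts the lower values of the first.

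**Figure D3:**
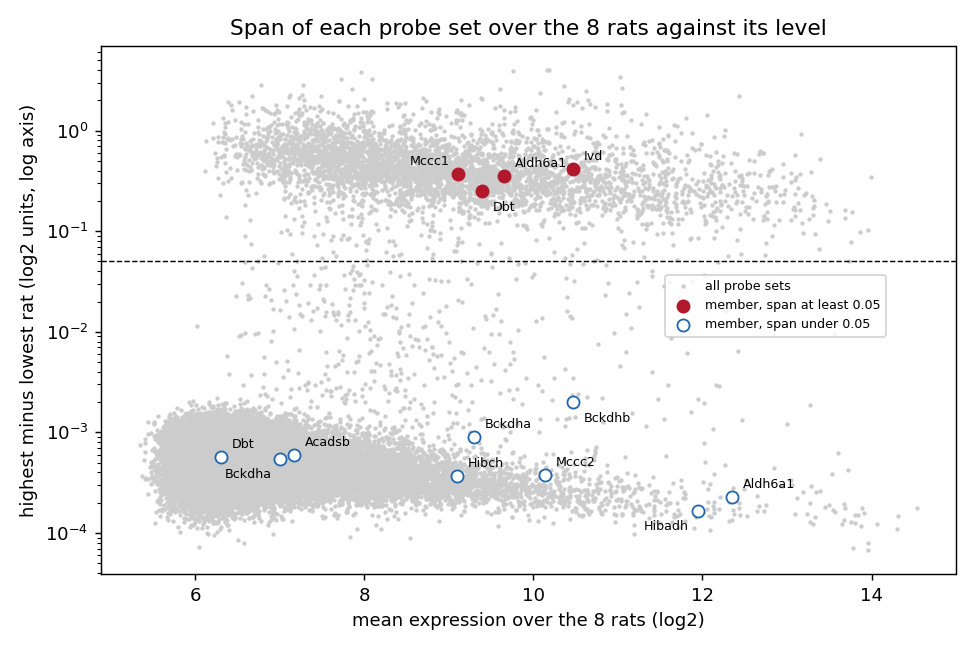
Span of each probe set over the 8 rats (highest minus lowest log2 value, log axis) against its mean level (log2), with all probe sets in light grey, members spanning at least 0.05 in red and members under 0.05 as open circles; the dashed line is 0.05. The 4 measured member probe sets lie between 0.248 and 0.417 and the other 9 at or under 0.00201.

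Around these 10 genes, a list of 29 further genes of the pathway was examined: the aminotransferases and the mitochondrial carrier, the rest of the complex and its switch, later steps, cofactor enzymes, electron acceptors and Klf15. Probe sets were named for 25 of them, and 10 genes were measured, by 12 probe sets. By rank products 1 probe set was lower and 0 were higher, beside 12.1% and 8.5% of all measured probe sets. By limma 0 passed, also at an unadjusted p under 0.05, where 7.29% of all measured probe sets were lower and 5.37% higher. In 0 did the diets fail to overlap, beside 4.07% with all HP rats below all control rats and 3.1% above. The median log2 difference of the 12 probe sets was 0.04.

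Klf15, a transcription factor that in mice drives the enzymes of amino acid breakdown, branched-chain amino acids included, was the gene called lower. Its log2 values were 9.41, 9.84, 10.27 and 10.02 in HP rats 1 to 4, against 10.17, 10.32, 10.41 and 9.89 in control rats 1 to 4. HP rat 1 was the lowest of all rats, the HP rats were widely spread, and the diets overlapped. The mean was 9.88 ± 0.36 in HP rats and 10.20 ± 0.23 in control rats (SD, n = 4 each), a log2 difference of -0.32 (standard error 0.18, rank products FDR 0.0198, limma adjusted p = 0.470). The rank products call did not pass without HP rat 1 (FDR 0.0940) or without control rats 1, 2 or 3 (0.0514, 0.110 and 0.125), nor when only measured probe sets were ranked (0.495). The log2 difference was -0.16 without HP rat 1 and -0.44 without HP rat 3. The other probe sets of Klf15, at mean log2 levels of 6.76 and 6.19, were not measured.

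Before the complex, Slc25a44, the carrier that brings branched-chain amino acids into mitochondria, was measured by 2 probe sets with log2 differences of -0.15 (standard error 0.09) and -0.14 (standard error 0.11), of which neither passed (rank products FDR 0.0955 and 0.178, limma adjusted p = 0.467 and 0.588). With a rat left out the first lay between -0.22 (without control rat 1) and -0.10 (without control rat 3), and the second between -0.21 and -0.05 without the same rats. In the first, the HP rats were at 8.12, 8.04, 8.10 and 8.11 and the control rats at 8.04, 8.20, 8.40 and 8.34, so that control rat 1 lay within the HP range and the other control rats above it. The aminotransferases Bcat1 and Bcat2 were not measured, at mean log2 levels of 6.04 to 6.58.

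The switch of the complex was measured on both sides. Bckdk, the kinase that turns the complex off, had a log2 difference of -0.08 (standard error 0.11), which was 0.01 without control rat 3. Ppm1k, the phosphatase that turns it on, had values of 9.57, 8.98, 9.50 and 9.83 in HP rats 1 to 4, against 9.82, 9.07, 9.07 and 9.09 in control rats 1 to 4. Control rat 1 lay apart from the other control rats and near the top of the HP range, and HP rat 2 lay below every control rat. Its log2 difference of 0.21 (standard error 0.22) did not pass (rank products FDR 0.0673, limma adjusted p = 0.682), and it was 0.09 without HP rat 4 and 0.40 without control rat 1. The other probe sets of Ppm1k, at mean log2 levels of 6.64 and 6.62, were not measured. Dld, the E3 subunit that the complex shares with others, was not measured either.

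Of the later steps of the isoleucine and valine routes 4 probe sets were measured, of the electron acceptors 2 and of the propionyl-CoA branch 1, that of Mcee, while Acad8, Etfdh, Pcca, Pccb, Mmaa, Mmachc and Mmadhc were not measured. The measured ones had positive differences that did not pass, where 56.5% of all measured probe sets were negative. The log2 differences were 0.03 for Echs1 (enoyl-CoA hydratase), 0.04 for Hsd17b10 (the dehydrogenase of the isoleucine route), 0.08 and 0.04 for the 2 probe sets of Acat1 (the thiolase that ends the isoleucine route), 0.05 for Mcee (methylmalonyl-CoA epimerase), 0.08 for Etfa and 0.10 for Etfb. The second probe set of Acat1 turned to -0.03 without control rat 2 and Mcee to -0.01 without control rat 1. With a rat left out, Echs1 lay between 0.01 (without control rat 4) and 0.06 (without control rat 1), Hsd17b10 between 0.03 (without control rat 2) and 0.06 (without control rat 1), and Etfa between 0.03 (without control rat 3) and 0.13 (without control rat 4). Etfa and Etfb form the electron transfer flavoprotein, which takes electrons from Ivd, Acadsb and Acad8 as well as from the dehydrogenases of fatty acids. Etfb was at 11.31, 11.36, 11.36 and 11.36 in HP rats 1 to 4, against 11.24, 11.20, 11.21 and 11.35 in control rats 1 to 4. The HP rats lay above 3 of the control rats, with control rat 4 among them (standard error 0.04, rank products FDR 0.0811, limma adjusted p = 0.402). In both diets the rats stood in the same order in the first probe set of Acat1 as in Mccc1.

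**Figure D4:**
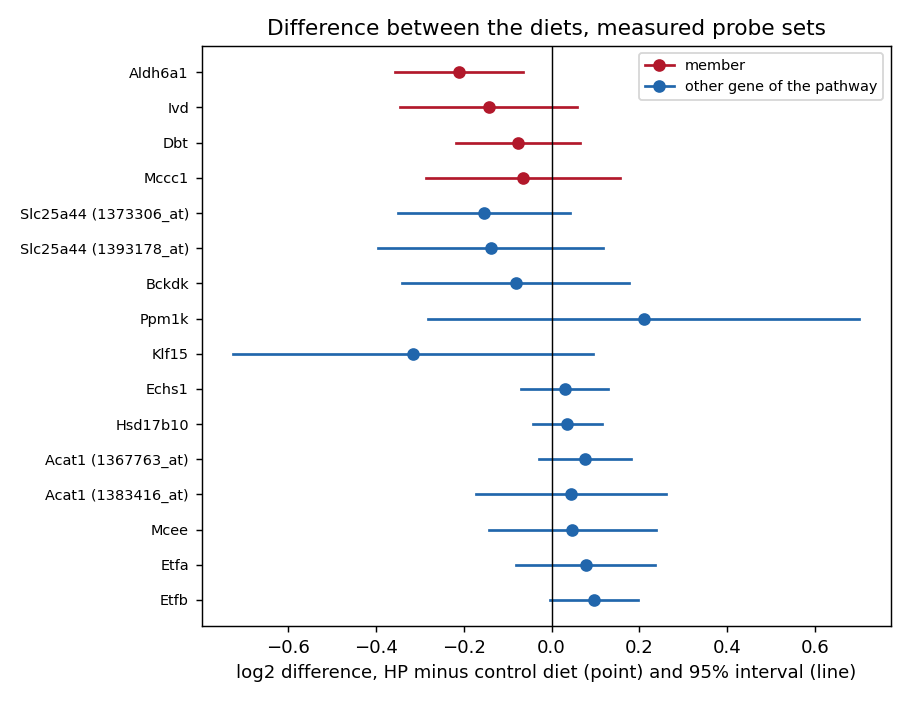
Log2 difference (HP minus control diet) of the 16 measured probe sets, with 95% intervals from limma as lines; members are red and other genes of the pathway blue. The intervals are not adjusted for the number of probe sets tested. The interval lies below 0 for Aldh6a1 alone (limma adjusted p = 0.298), and it includes 0 for the other 15.

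Markers of other liver cells were set beside these values. For sinusoidal endothelium, 4 of 7 listed genes were measured and 2 of their 5 probe sets, those of Kdr and Stab2, were higher by rank products. That method called 8.5% of all measured probe sets higher, and limma called neither of these (adjusted p = 0.217 for Kdr and 0.320 for Stab2). The linear level summed over all probe sets of the endothelial list was 4586 to 4987 in HP rats and 4162 to 4651 in control rats. For Kupffer cells and macrophages, 7 of 10 genes were measured and 0 were called, with sums of 3664 to 4193 in HP rats and 3543 to 4623 in control rats. For stellate cells 4 of 7 were measured with 0 called, and the sums were 2812 to 3194 and 2749 to 3222 in HP and control rats. Of the red cell list Hbb was measured and was higher by rank products (FDR 0.0295) but was not called by limma (adjusted p = 0.454). The sums were 2943 to 3403 in HP rats and 2378 to 3474 in control rats. None of the bile duct and lymphocyte markers with a probe set was measured. The mean of the measured Kupffer cell markers, relative to each marker's mean over the 8 rats, was highest in control rat 1 (0.25), control rat 4 (0.10) and HP rat 2 (0.08). Mccc1 was highest in the same 3 rats, but the orders within each diet differed. From high to low, the Kupffer cell markers ran 1, 4, 2, 3 in control rats and 2, 1, 3, 4 in HP rats. Mccc1 ran 4, 1, 3, 2 in control rats and 2, 4, 3, 1 in HP rats. The part of these cells in the values of Aldh6a1 and Mccc1 was not tested.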

How the data were processed

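Liver RNA of 8 rats was hybridised to Affymetrix GeneChip arrays, 4 for the HP diet and 4 for the control diet, 1 rat per array. The authors summarised the probes with FARMS in R 2.13.1 (submitters' processing notes), and the deposited values are log2 values; how the arrays were normalized against each other is not given in the sources used, and no further scaling was applied. Values ran from 5.35 to 14.53. Depth does not apply to arrays: their number limits the precision. The limma p-values set the diet difference against the spread between these rats. The rank products FDR rests on permuting values within each array, not on that spread.

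Probe sets were named from the platform annotation where it gives a single symbol. Rank products (numpy 2.4.6, Python 3.11.15) used all 16 HP minus control differences of all 31099 rows, 57 array controls included, with 1000 permutations within arrays and FDR under 0.05. Limma 3.58.1 in R 4.3.3 (trend, robust, statmod 1.5.0) was fitted to the 4155 probe sets spanning at least 0.05, with Benjamini-Hochberg adjustment, two-sided. Both were run on simulated data with planted differences larger than that of any member, rank products with fewer permutations. Those runs do not show how either method performs at differences as small as these. Figures used matplotlib 3.10.9.

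The members and the gene lists were chosen with earlier results of these data known. Values are given for every measured member and, in the list of other genes, for those called, those whose diets do not overlap and the largest difference in each role group; the other measured genes of that list (Bckdk, Echs1, Hsd17b10, Etfa and the second probe sets of Slc25a44 and Acat1) were added after their values were seen, to complete the roles. Alternatives were array centring, quantile normalization, other span and level filters, plain empirical Bayes, array weights, a replicate block and leaving out each rat.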

Additional observations from a re-analysis of the deposited data

Results flagged for a closer look

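Of 32 groups of 4 rats (16 measured probe sets in 2 diets), 5 held a rat whose gap to the nearest of the others, divided by the range of its group, was above Dixon's critical value, where chance flags about 5%. None of the 4 measured members was among them. Control rat 3 was high in Bckdk (8.96, with 8.58 to 8.61 in the other control rats). Control rat 1 was high in Ppm1k (9.82, with 9.07 to 9.09 in the others) and in Hsd17b10 (11.90, with 11.81 to 11.82 in the others). HP rat 1 was low in Mcee (9.11, with 9.34 to 9.38 in the other HP rats) and in Etfb (11.31, with 11.36 in each of the others).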

How the results depend on the processing

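The count of members lower by rank products, 1 of 4, was 0 when only measured probe sets were ranked (FDR of Aldh6a1 0.754) and 0 to 1 with a rat left out (FDR 0.0227 to 0.122); it stayed at 1 after quantile normalization (FDR 0.0381), after centring (0.0252) and without the dimmest 25% of probe sets (0.0458). The count over all ranked probe sets was 353 higher and 505 lower, 25 higher and 18 lower when only measured ones were ranked, 234 and 307 without the dimmest 25%, and 85 to 587 higher and 71 to 541 lower with a rat left out. Limma at an unadjusted p under 0.05 gave 223 higher and 303 lower, 1315 and 1112 with no span filter, 385 and 490 with array weights, and 143 to 375 and 189 to 475 with a rat left out. The limma count of members lower at that p was 2 with array weights, where Ivd joined Aldh6a1 (difference -0.22), and 1 to 2 with a rat left out; at an adjusted p it was 0 in every setting. With a rat left out, log2 differences ran from -0.26 to -0.18 for Aldh6a1, -0.23 to -0.09 for Ivd, -0.12 to -0.04 for Dbt and -0.12 to -0.0023 for Mccc1. Mccc1 turned to 0.00311 with array weights. Bckdk ran from -0.14 to 0.0111 (without control rat 3), Acat1 (second probe set) from -0.0318 (without control rat 2) to 0.128 and Mcee from -0.00907 (without control rat 1) to 0.11; the cause was not tested. Same-numbered rats had correlated deviations in pair 1 alone (r = 0.48, 0.03, -0.12 and -0.20). With the replicate number as a block, Aldh6a1 had an FDR of 0.0254 by rank products and an adjusted p of 0.368 by limma, and 1 member was called by rank products and 0 by limma. The number of arrays, 4 a diet, limits the precision.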

Other observations

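A further probe set carries no symbol in the platform annotation and was therefore not a member, but the study assigns it to Hibch, the hydrolase of the valine route. It was singled out after its values were seen. Its log2 values were 6.83, 6.81, 6.97 and 6.74 in HP rats 1 to 4, against 6.67, 6.59, 6.61 and 6.78 in control rats 1 to 4. The diets overlapped through HP rat 4 and control rat 4. The mean level of this probe set was low, at 6.75. Of the probe sets with a single symbol and a mean from 6 to 7, 1.47% were measured. The Hibch probe set was higher by rank products (log2 difference 0.18, standard error 0.09, FDR 0.0365), as were 8.5% of all measured probe sets. It was not called by limma (adjusted p = 0.452). Its direction was opposite to that of Aldh6a1, which acts after Hibch in the valine route, and the member probe set of Hibch gave no value to set beside it.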
